A study of Mus musculus with 32 samples.

Results

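The genes described here are 37 genes of mitosis and the mitotic spindle, taken as a list by name from the 31053 genes counted in the series. All 37 were found, and all 37 were among the 12556 genes that passed the filter on low counts and were tested. They were followed in E14 mouse embryonic stem cells, a line derived from the blastocyst, as the cells left the naive pluripotent state. The 2i group was grown on gelatin in N2B27, a serum-free medium, with 2 inhibitors, CHIR99021 against the kinase GSK3 and PD0325901 against the kinase MEK, and the 2iL group had the same medium and inhibitors with the cytokine LIF added. In the 2i course cells were collected before withdrawal (0 h) and 12, 24, 36, 48, 60, 72 and 84 h after 2i was replaced by plain N2B27. In the 2iL course they were collected at 0 h and 24, 36, 48, 60, 72, 84 and 96 h after 2iL was replaced in the same way. Each of these 16 groups had 2 libraries, and 1 of the 32, 2iL 36 h replicate 2, was left out because it held 7298 counts, so that 2iL 36 h rests on 1 library whose spread is taken from the other groups.

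Cells enter mitosis when cyclin B and CDK1 form an active kinase, and they leave it when the anaphase-promoting complex marks cyclin B and securin for destruction. Between these events the spindle forms, kinetochores attach the chromosomes to microtubules, and the spindle checkpoint holds the anaphase-promoting complex back until each kinetochore is attached. Most of the genes on the list are transcribed periodically, with messenger RNA that accumulates in G2 and mitosis, so that their level in a culture depends on how many cells are in those phases. Mouse embryonic stem cells divide rapidly, and the cell cycle is known to be rebuilt as pluripotency is lost. The share of cells in each phase is not part of the data used here.

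Libraries were read from the 3' end of polyadenylated transcripts, and the deposited values are whole counts per gene. The 31 libraries held 1122648 to 3438514 counts, and a count of 3 corresponds to 0.989 to 2.94 CPM (counts per 1000000 counts of the library, scaled with TMM factors). The least counted of the 37 genes was Cdc25c, with 513 counts over the 31 libraries, and the lowest count of any of them in 1 library was 6, for Aurkb. Genes with an adjusted p under 0.05 in edgeR's quasi-likelihood test, after Benjamini-Hochberg adjustment across every gene tested, are said to have changed, to have risen or to have fallen. Values after ± are standard errors of log2 fold changes with 2 libraries per group. The labels do not say whether the 2 libraries came from separate cultures, so p-values measure the spread between libraries, which may be technical. In bulk RNA, fewer cells in mitosis and less RNA per mitotic cell cannot be told apart. Marker levels are given in CPM without TMM factors. All 7 markers of embryonic stem cells had counts in these libraries, and their summed level was 1446 to 1550 CPM at 0 h and 254 CPM in the lowest library, 2i 72 h replicate 1. Sox2 was the largest part of this sum at 0 h (706 to 881 CPM). Utf1 did not follow the sum, with 12.5 and 18.5 CPM at 0 h of 2iL and 187 and 257 CPM at 48 h. The summed level of 5 neural markers was 164 to 196 CPM at 0 h and reached 2160 CPM in 2i 84 h replicate 1, where 1735 CPM were Sox11. Sox1, Pax6 and Nes were also higher in that library than in both 2i 0 h libraries. Tubb3 was not, with 50.8 and 36.9 CPM at 84 h of 2i, against 52.3 and 74.4 CPM at 0 h. The summed level of 7 fibroblast markers did not exceed 31.2 CPM. Those of 6 primitive endoderm markers and 6 trophectoderm markers were 0.70 to 12.8 CPM and 5.54 to 233 CPM. The trophectoderm sum was highest at 0 h (173 to 233 CPM), where it was mostly Tfap2c (168 to 216 CPM), and does not stand for the other markers. Krt18, Cdx2, Eomes and Hand1 were each highest in a library after withdrawal. Krt18 was at most 1.15 CPM at 0 h and reached 53.7 CPM in 2iL 96 h replicate 2. Elf5 was highest at 0 h, at 2.68 CPM in 2i 0 h replicate 2. The part of changing cell identity in the results was not tested.

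Promoter sequences are shown for 5 of the genes that changed over both courses and for Pttg1. Pttg1 also changed over both, though its course differed from those of the 5. Cell cycle genes of this class often carry the motif TTTGAA, known from human and mouse cells as the core of the cell cycle genes homology region, and CCAAT, which the factor NF-Y binds. RefSeq (GRCm38.p6) gave promoter windows, from 250 bases before to 50 bases after the start, for 30 of the 37 genes, with 33 windows in all. TTTGAA or its reverse complement TTCAAA stood in 75.8% of these windows, against 17.9% of 32851 windows of all genes. Within 50 bases of the start it stood in 66.7% of the windows, against 4.94% of all. CCAAT or its reverse complement ATTGG stood in 75.8%, against 37.4% of all, and both motifs stood in 66.7%, against 6.95% of all. Among the 30 genes, 19 had both and 5 had neither (Birc5, Mad2l1, Nuf2, Nusap1 and Pttg1). Birc5, which is not shown, also changed over both courses, so the windows shown do not stand for all such genes. In the windows below, read 5' to 3' on the strand of the gene, capitals mark the letters of both motifs in either direction, which share letters nowhere except in Ube2c, where a CCAAT runs into an ATTGG. The windows are Bub1b at chr2:118597961-118598260, plus strand, Ube2c at chr2:164769679-164769978, plus strand, Top2a at chr11:99024140-99024439, minus strand, Kif11 at chr19:37376132-37376431, plus strand, Anln at chr9:22389157-22389456, minus strand, and Pttg1 at chr11:43425932-43426231, minus strand.
Bub1b: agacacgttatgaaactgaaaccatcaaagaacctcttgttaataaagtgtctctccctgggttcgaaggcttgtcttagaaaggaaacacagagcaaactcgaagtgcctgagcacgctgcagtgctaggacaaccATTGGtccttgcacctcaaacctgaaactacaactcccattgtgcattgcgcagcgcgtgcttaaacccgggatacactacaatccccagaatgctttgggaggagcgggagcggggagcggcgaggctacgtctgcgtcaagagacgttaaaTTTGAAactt
Ube2c: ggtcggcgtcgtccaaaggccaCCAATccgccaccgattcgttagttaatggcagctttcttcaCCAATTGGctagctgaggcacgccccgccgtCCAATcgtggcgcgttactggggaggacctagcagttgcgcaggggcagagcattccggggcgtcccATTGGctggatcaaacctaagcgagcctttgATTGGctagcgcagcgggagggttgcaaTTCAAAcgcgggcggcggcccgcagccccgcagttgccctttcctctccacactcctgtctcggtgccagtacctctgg
Top2a: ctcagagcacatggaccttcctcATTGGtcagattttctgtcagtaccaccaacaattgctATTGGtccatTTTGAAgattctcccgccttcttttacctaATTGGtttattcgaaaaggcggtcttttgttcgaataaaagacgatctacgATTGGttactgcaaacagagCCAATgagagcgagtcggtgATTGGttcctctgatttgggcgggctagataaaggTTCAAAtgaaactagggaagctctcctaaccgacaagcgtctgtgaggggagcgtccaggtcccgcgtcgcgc
Kif11: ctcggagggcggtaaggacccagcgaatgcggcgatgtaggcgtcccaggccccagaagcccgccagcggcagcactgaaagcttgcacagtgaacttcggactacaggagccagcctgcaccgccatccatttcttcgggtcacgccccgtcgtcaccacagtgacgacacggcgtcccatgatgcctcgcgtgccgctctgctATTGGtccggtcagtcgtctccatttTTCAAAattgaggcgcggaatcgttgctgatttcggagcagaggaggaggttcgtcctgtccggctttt
Anln: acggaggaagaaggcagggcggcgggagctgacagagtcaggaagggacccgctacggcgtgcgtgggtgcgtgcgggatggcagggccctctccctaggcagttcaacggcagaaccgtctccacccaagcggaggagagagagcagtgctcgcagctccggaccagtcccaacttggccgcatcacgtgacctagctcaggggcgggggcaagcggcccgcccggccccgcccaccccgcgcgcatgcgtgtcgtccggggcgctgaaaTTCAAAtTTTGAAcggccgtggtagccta
Pttg1: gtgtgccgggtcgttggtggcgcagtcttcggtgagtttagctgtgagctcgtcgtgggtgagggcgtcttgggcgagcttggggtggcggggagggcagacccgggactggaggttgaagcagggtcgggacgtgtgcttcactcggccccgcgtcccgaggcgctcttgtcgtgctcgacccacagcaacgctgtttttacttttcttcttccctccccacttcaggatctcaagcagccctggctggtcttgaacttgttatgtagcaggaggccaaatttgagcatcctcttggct

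Bub1b, Ube2c, Top2a and Kif11 thus carry both motifs, Anln carries 2 TTTGAA copies just after its start and no CCAAT, and Pttg1 carries neither in this window. The RefSeq start of Pttg1 differs from that of GENCODE, and its window lies wholly inside the gene as GENCODE places it. The same holds for the windows of Kif2c and Kif4 and for a window of Bub3, while that of Mad2l1 holds 0 bases of its gene. These windows are counted in the shares above. The matches describe letters and were not tested as binding sites.

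Over both courses the summed level of the list, scaled with TMM factors, was higher early and lower late, though not at 12 h of 2i with library size alone as the scaling. Summed over the 37 genes, the level in the 2 libraries of each time of the 2i course was 5971 and 6483 CPM at 0 h, 7714 and 7746 CPM at 12 h, 7275 and 7529 CPM at 24 h, and 4832 and 4979 CPM at 72 h. The sums of the 2iL course were 6314 and 6515 CPM at 0 h, 8194 and 8583 CPM at 24 h, 8122 and 8317 CPM at 48 h, 6317 and 6652 CPM at 72 h, and 5668 and 5695 CPM at 96 h. The libraries at 12 h of 2i and at 24 and 48 h of 2iL were thus above both of their 0 h libraries, and those at 72 h of 2i and at 96 h of 2iL were below both. With library size alone as the scaling, the sums at 12 h of 2i were 6476 and 5477 CPM, against 6235 and 5817 CPM at 0 h, so that the 12 h libraries no longer stood above both, while the other orders held. The sum weights abundant transcripts such as Top2a most. By the mean of each gene, 19 of the 37 were highest at 12 h of the 2i course, 7 at 24 h and 7 at 36 h, and 15 were lowest at 72 h and 12 at 84 h. In 2iL 18 were highest at 24 h, and 15 were lowest at 96 h and 11 at 84 h.

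**Figure D1:**
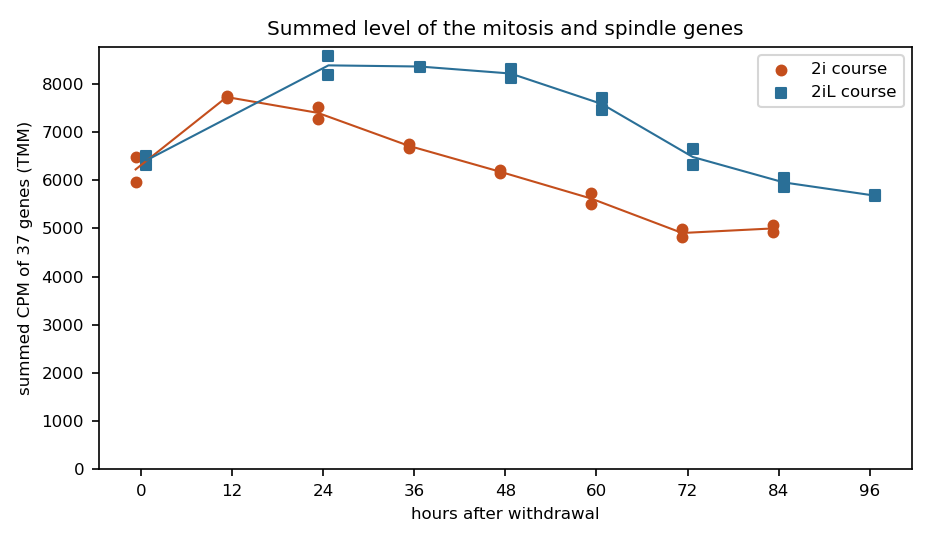
Summed level of the 37 mitosis and spindle genes (y axis, CPM scaled with TMM factors) against hours after withdrawal (x axis); points are libraries, orange circles the 2i course and blue squares the 2iL course, and lines join group means. The 2i course stands highest at 12 h (7714 and 7746 CPM) and the 2iL course at 24 to 48 h (8122 to 8583 CPM over these times), and both end below their 0 h libraries; with library size alone the 12 h libraries (6476 and 5477 CPM) are not both above those of 0 h.

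Tested over the 7 later times together, 23 of the 37 genes differed from 0 h in the 2i course, where 52.3% of all tested genes did. In 2iL 25 of 37 differed, where 56.5% of all genes did. The shares of the list stand near those of all genes and are not a result about the list. The genes that passed in 2i and those that passed in 2iL have 19 in common, 82.6% of those in 2i and 76.0% of those in 2iL, where the shares over all genes were 79% and 73%. The 2 tests share no libraries. Bub3, Cenpe, Kif4 and Ndc80 passed in 2i alone, and Ccna2, Ccnb2, Cdc20, Mad2l1, Mki67 and Nusap1 in 2iL alone, with no test of the difference implied. Aurkb, Bub1, Cdc25c, Cdk1, Cenpa, Kif23, Nuf2 and Smc4 passed in neither. By single times, 12 genes rose and 16 fell at 1 time or more in the 2i course, 5 of them in both directions, where 28.3% of all genes rose, 27% fell and 4.13% did both. In 2iL 12 rose and 10 fell, with no gene in both directions, where 32.1% of all genes rose, 31.7% fell and 3.27% did both. Across the 21 planned comparisons, Aurkb, Cdc25c, Cdk1, Nuf2 and Smc4 changed in none.

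**Figure D2:**
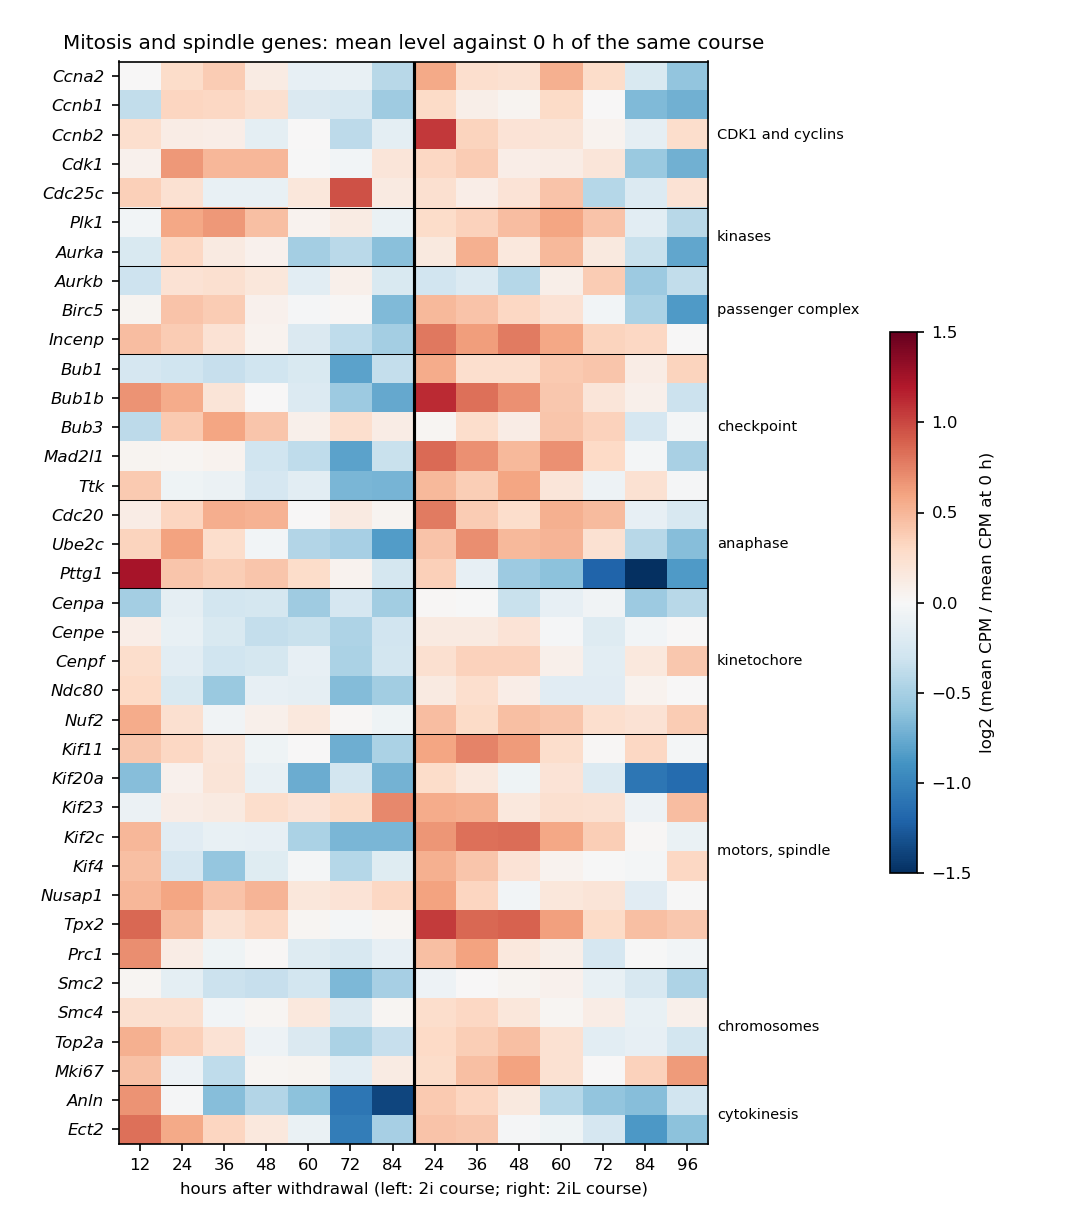
Log2 ratio of the mean CPM at each time to the mean CPM at 0 h of the same course for each of the 37 genes (rows, ordered by role) in the 2i course (left) and the 2iL course (right); columns are hours after withdrawal, red is higher and blue lower, and colours end at 1.5 and -1.5. Mostly red columns at 12 and 24 h of 2i and 24 to 60 h of 2iL give way to mostly blue ones from 60 h of 2i and 84 h of 2iL. By the fitted log2 fold change, 9 of the 37 genes were above 0 h at 84 h of 2i and 13 at 96 h of 2iL. Among these, Kif23 in 2i and Mki67 and Cenpf in 2iL passed the test.

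How soon the list responds was asked by comparing each time with 0 h. In the 2i course 7 of the 37 genes rose at 12 h, where 10.8% of all genes changed and 5.43% rose. They were Bub1b, Pttg1, Tpx2, Prc1, Top2a, Anln and Ect2. A further 5.37% of all genes fell at 12 h. At 24 h 4 rose (Bub1b, Ube2c, Nusap1 and Tpx2), where 17.3% of all genes changed, 8.47% higher and 8.86% lower. At 36 h Plk1 and Bub3 rose and Anln fell, where 17.5% of all genes changed, 8.72% higher and 8.79% lower. Nusap1 rose at 48 h, where 20.2% of all genes changed, 10.2% higher and 9.99% lower. Cenpa and Anln fell at 60 h, where 24.1% of all genes changed, 12.4% higher and 11.7% lower. At 72 h 12 fell, where 28.2% of all genes changed, 14.1% higher and 14.2% lower. At 84 h 10 fell and Kif23 rose, where 33.2% of all genes changed, 16.6% higher and 16.6% lower. The median log2 fold change of the list was 0.26 at 12 h and -0.27 at 72 h, while that of all genes was -0.02 and -0.01 at these times.

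After withdrawal of 2iL 6 of the 37 genes rose at 24 h, where 11.6% of all genes changed, 5.65% higher and 5.92% lower. These were Ccnb2, Incenp, Bub1b, Kif11, Nusap1 and Tpx2. At 36 h, with the 1 library, Bub1b, Kif11, Kif2c and Tpx2 rose, where 10.8% of all genes changed, 5.56% higher and 5.22% lower. At 48 h 8 rose and Pttg1 fell, where 29.1% of all genes changed, 14.7% higher and 14.4% lower. At 60 h 4 rose and Pttg1 fell, where 27.7% of all genes changed, 13.8% higher and 13.9% lower. At 72 h Pttg1 and Anln fell, where 28.8% of all genes changed, 14.6% higher and 14.1% lower. At 84 h 6 fell and Tpx2 rose, where 34.8% of all genes changed, 17.6% higher and 17.2% lower. At 96 h 8 fell and Cenpf and Mki67 rose, where 39.5% of all genes changed, 19.5% higher and 20.1% lower. The share of the list that changed was below that of all genes at each 2iL time from 48 h, and in 2i at 24, 36, 48, 60 and 84 h. The list's median log2 fold change was 0.43 at 24 h and -0.10 at 96 h, while that of all genes was -0.03 and -0.01.

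**Figure D3:**
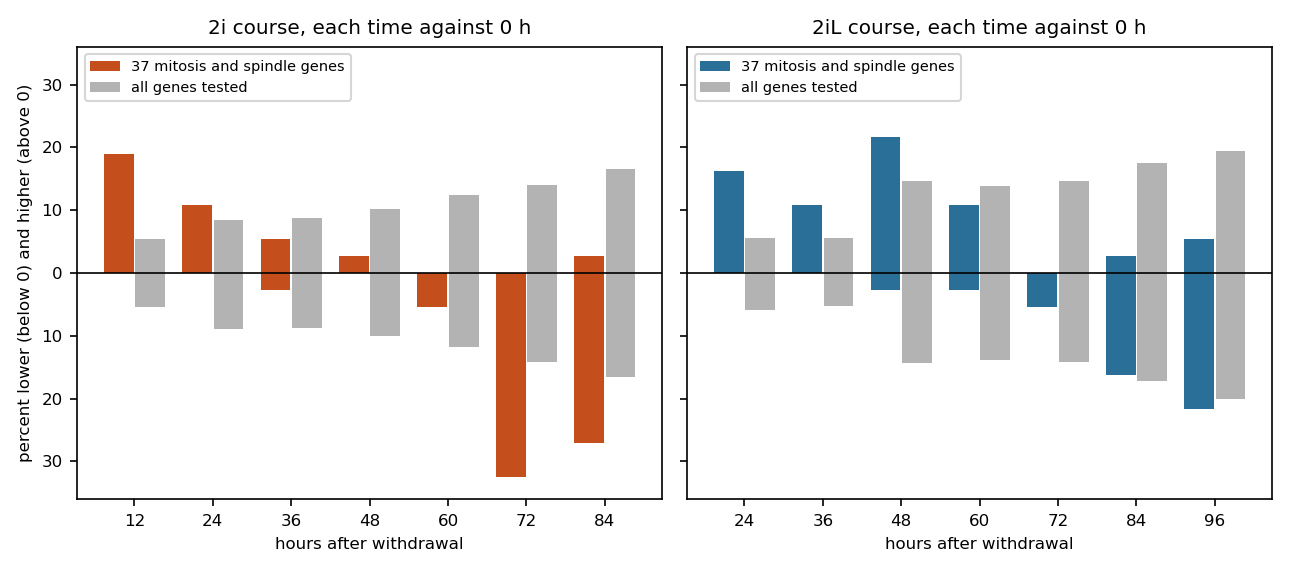
Percent of the 37 genes (coloured bars) and of all tested genes (grey bars) that rose (above 0) or fell (below 0) against 0 h at an adjusted p under 0.05, by hours after withdrawal, in the 2i course (left) and the 2iL course (right). At 72 h of 2i 32.4% of the list fell against 14.2% of all genes, and at 24 h of 2iL 16.2% rose against 5.65%, while at 96 h of 2iL 21.6% fell against 20.1%.

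These counts move with the libraries used. At 12 h of 2i, 2 to 5 genes changed when 1 of the 4 libraries compared was left out (2 without either 0 h library), and Pttg1 and Tpx2 remained changed each time. At 24, 36, 48 and 60 h of 2i each of the calls was lost whichever library was left out. At 72 h the count of 12 ranged from 4 (without 2i 0 h replicate 1) to 10, with 6 and 5 without replicates 1 and 2 of 72 h, and Anln, Ect2, Kif11 and Smc2 remained. At 84 h the count of 11 ranged from 4 (without 2i 0 h replicate 1) to 9, with 6 and 5 without replicates 1 and 2 of 84 h, and Anln and Ube2c remained. Of the 2iL calls, Bub1b, Ccnb2, Incenp and Tpx2 remained changed at 24 h, where the count was 4 without 2iL 0 h replicate 2 or 2iL 24 h replicate 2. Bub1b, Kif2c and Tpx2 remained at 48 h, where the count was 5 without 2iL 0 h replicate 1. At 36 h the count was 2 without either 0 h library. At 60 h it was 1 without either 0 h library and 2 without either 60 h library, and at 72 h it was 1 without 2iL 0 h replicate 2 or 2iL 72 h replicate 1. At 84 h it was 9 without replicate 1 of that time and 2 without replicate 2, and 3 and 4 without replicates 2 and 1 of 0 h. At 96 h it was 3 without 2iL 0 h replicate 2 or 2iL 96 h replicate 1, 6 when 2iL 0 h replicate 1 was left out, and 16 when 2iL 96 h replicate 2 was. DESeq2 called 7 genes each at 72 and 84 h of 2i and 3 at 60 h of 2iL.

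Sequencing composition moved with the early rise. The 10 most counted genes took 35.5% and 43.5% of counts at 12 h of 2i, against 22.3% and 24.7% at 0 h, and 30.6% and 30.5% at 24 h of 2iL, against 17.1% and 18.9% at 0 h. Most of this was Gm42418, which holds ribosomal RNA sequence, with 29.3% and 36.7% of counts at 12 h of 2i against 13.97% and 16.1% at 0 h. With library size alone as the scaling, the median of all genes moved by -0.34 at 12 h of 2i, -0.25 at 24 h of 2iL and 0.23 at 72 h of 2i, on the log2 scale. The list then had 2 rises and 1 fall at 12 h of 2i, 4 rises at 24 h of 2iL and 1 fall at 72 h of 2i. At 36 h of 2i it had 1 fall and no rise, at 84 h of 2i 1 rise and 4 falls, at 60 h of 2iL 2 rises and 1 fall, at 84 h of 2iL 4 falls and no rise, and at 96 h of 2iL 3 rises and 3 falls. The list's median at 12 h of 2i was then -0.06, and relative to the median of all genes, which a change of scaling moves alike, it was 0.28 at 12 h and -0.26 at 72 h of 2i. Directions below are relative to the other genes in this sense, and the part of composition in them was not tested further.

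Of the 5 genes that switch CDK1 on, Ccnb1 differed over all times of the 2i course jointly, and Ccna2, Ccnb1 and Ccnb2 over those of the 2iL course, where 52.3% and 56.5% of all genes did. The 2i call of Ccnb1 (adjusted p = 0.0348) was lost without 11 of the 16 libraries, left out 1 at a time (adjusted p up to 0.134), and the 2iL call of Ccnb2 without 2iL 24 h replicate 1 (0.0533). Ccnb2, a B-type cyclin, had 77.3 and 78.1 CPM at 24 h of the 2iL course, against 37.5 and 37.2 CPM at 0 h (log2 fold change 1.06 ± 0.24, adjusted p = 0.00263). Both libraries at 24 h thus stood well above both at 0 h, and at 36 h the level was back to 46.9 CPM. At 24 h of the 2i course Ccnb2 had 44.6 and 48.7 CPM, against 43.7 and 42.9 CPM at 0 h, which did not pass the test. Its mean in 2i was highest at 12 h, with 54.2 and 49.0 CPM, which did not pass either, and 2iL was not collected at 12 h. The difference between the courses at 24 h did not pass for Ccnb2. Ccnb1, the principal mitotic cyclin, fell at 84 and 96 h of the 2iL course, with 60.4 and 87.5 CPM at 96 h against 129 and 114 CPM at 0 h (log2 fold change -0.70 ± 0.26, adjusted p = 0.0327). Both calls were lost without either 0 h library, that at 84 h also when replicate 2 of 84 h was left out and that at 96 h when replicate 1 of 96 h was left out. Ccna2, cyclin A2, acts in S phase and G2 and had 31.2 and 57.2 CPM at 96 h of 2iL, against 66.2 and 67.3 CPM at 0 h (adjusted p = 0.0913), while its joint adjusted p was 0.0077. Cdk1, the kinase itself, and Cdc25c, the phosphatase that activates it, passed no test against 0 h. Cdk1 stood at 175 and 148 CPM at 24 h of 2i, against 122 and 82.97 CPM at 0 h, with both later libraries higher (adjusted p = 0.163).

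Plk1 and Aurka encode the kinases that mature the centrosomes and help to build the spindle. Plk1 had 257 and 241 CPM at 36 h of the 2i course, against 173 and 145 CPM at 0 h (log2 fold change 0.64 ± 0.22, adjusted p = 0.0404), and 270.4 and 261 CPM at 60 h of the 2iL course, against 174 and 178 CPM at 0 h (log2 fold change 0.59 ± 0.22, adjusted p = 0.0392). In each case both later libraries stood above both 0 h libraries, and each call was lost whichever library was left out. Aurka had 40.3 and 88.3 CPM at 96 h of the 2iL course, against 108 and 113 CPM at 0 h (log2 fold change -0.74 ± 0.26, adjusted p = 0.021), a fall that was lost without 2iL 96 h replicate 1 or either 0 h library. For 2i, Aurka differed over the 7 times jointly (adjusted p = 0.0164; lost without 2i 24 h replicate 2 or 2i 84 h replicate 1, up to 0.0643), but at no single time. Its level there was 135 and 145 CPM at 24 h and 69.5 and 76.2 CPM at 84 h.

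The chromosomal passenger complex, which corrects wrong attachments and later marks the division plane, is represented by its kinase Aurkb and its subunits Birc5 (survivin) and Incenp. Incenp had 677 and 701 CPM at 24 h of the 2iL course, against 397 and 400.4 CPM at 0 h (log2 fold change 0.79 ± 0.18, adjusted p = 0.00313), and remained higher at 48 h (0.77 ± 0.18) and 60 h (0.58 ± 0.18). Each library at these times was above both 0 h libraries. The call at 48 h was lost without 2iL 48 h replicate 1, and that at 60 h without either 0 h library or 2iL 60 h replicate 2. In the 2i course Incenp had 366 and 301 CPM at 84 h, against 494 and 453 CPM at 0 h (log2 fold change -0.51 ± 0.18, adjusted p = 0.0293), which was lost without either 0 h library or 2i 84 h replicate 2. Birc5 had 147 and 201 CPM at 96 h of the 2iL course, against 298 and 327 CPM at 0 h (log2 fold change -0.84 ± 0.20, adjusted p = 0.00127). Its level at 84 h of the 2i course was 189 and 159.8 CPM, against 278 and 276 CPM at 0 h (log2 fold change -0.67 ± 0.20, adjusted p = 0.011), a call lost without 2i 0 h replicate 1 or 2i 84 h replicate 2. Birc5 was thus lower in both late groups, with no overlap between libraries. Aurkb was counted at 2.97 to 16.4 CPM in the 31 libraries, close to the limit of the counts, and passed no test.

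Of the 5 spindle checkpoint genes, Bub1b changed at more times than the others. It encodes BubR1, which inhibits the anaphase-promoting complex, and lies at chr2:118598211-118641591, plus strand (GRCm38). Bub1b had 200.3 and 229 CPM at 24 h of the 2iL course, against 105 and 92.6 CPM at 0 h (log2 fold change 1.12 ± 0.17, adjusted p = 2.22e-05), and 162 and 158 CPM at 12 h of the 2i course, against 98.9 and 102 CPM at 0 h (log2 fold change 0.67 ± 0.17, adjusted p = 0.00893). Both courses thus rose first, with no overlap. In the 2i course Bub1b then fell below its start, with 68.2 and 49.9 CPM at 84 h (log2 fold change -0.77 ± 0.18, adjusted p = 0.00125). At 96 h of the 2iL course the level was 79.9 and 78.2 CPM, and the difference from 0 h did not pass (adjusted p = 0.138). The call at 12 h was lost without either 2i 0 h library or 2i 12 h replicate 1, and that at 84 h without 2i 84 h replicate 2. Ttk, the kinase that starts the checkpoint, fell at 72 h of the 2i course, with 128 and 132 CPM against 216 and 201 CPM at 0 h (log2 fold change -0.68 ± 0.21, adjusted p = 0.0123), and at 84 h (-0.69 ± 0.20), a call lost without 2i 0 h replicate 1 or 2i 84 h replicate 1 (adjusted p up to 0.109). Its rise at 48 h of the 2iL course rests on unlike libraries, with 346 and 223 CPM in replicates 1 and 2 against 181 and 195 CPM at 0 h, and was lost without 2iL 48 h replicate 1 or either 0 h library (adjusted p up to 0.469). Bub1, a kinetochore kinase, fell at 72 h of 2i with 31.3 and 40.2 CPM, against 63.1 and 61.5 CPM at 0 h (log2 fold change -0.81 ± 0.24, adjusted p = 0.00958). Bub3, a partner of both Bub proteins, rose at 36 h of 2i with 165 and 154 CPM, against 106 and 105 CPM at 0 h (log2 fold change 0.59 ± 0.20, adjusted p = 0.0388). The Bub3 call was lost whichever library was left out. Those of Bub1 and Ttk at 72 h were lost without 2i 0 h replicate 1 or 2i 72 h replicate 1, and that of Ttk also without 2i 72 h replicate 2. Mad2l1, the checkpoint protein Mad2, differed over the 2iL times jointly (adjusted p = 0.013) and stood at 57.2 and 51.8 CPM at 24 h, against 28.7 and 31.9 CPM at 0 h, with both later libraries higher (adjusted p = 0.0737).

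The genes grouped under anaphase are Cdc20, the activator of the anaphase-promoting complex, Ube2c, its ubiquitin-conjugating enzyme, and Pttg1, the securin that this complex destroys. Ube2c (chr2:164769898-164778822, plus strand) had 398 and 387 CPM at 24 h of the 2i course, against 266 and 249 CPM at 0 h (log2 fold change 0.61 ± 0.20, adjusted p = 0.0302), a rise lost whichever library was left out. At 84 h it had 149 and 139.99 CPM and had fallen below 0 h (log2 fold change -0.83 ± 0.21, adjusted p = 0.00202), a call that held without any 1 library. In the 2iL course it had 118 and 199 CPM at 96 h, against 240.2 and 252 CPM at 0 h (log2 fold change -0.62 ± 0.20, adjusted p = 0.0151), which was lost without 2iL 0 h replicate 2 or 2iL 96 h replicate 1. Cdc20 passed the joint test over the 2iL times (adjusted p = 0.0219), which was lost without 2iL 72 h replicate 1 or replicate 2 of 0 h or 24 h (adjusted p up to 0.0978).

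Pttg1 (chr11:43420250-43426251, minus strand) was the 1 gene of the list that differed between the media before withdrawal, where 8% of all genes did. It had 31.4 and 29.7 CPM in 2i, against 86.2 and 70.4 CPM in 2iL (log2 fold change -1.36 ± 0.21, adjusted p = 2.7e-05), so that both 2i libraries were below both 2iL libraries, and this held whichever of the 4 was left out. At 12 h of the 2i course Pttg1 had 83.7 and 59.8 CPM, above both libraries of 0 h (log2 fold change 1.24 ± 0.22, adjusted p = 0.000196). By 24 h it was at 36.8 and 44.4 CPM, near its start. Its mean in the 2i course was 30.5, 71.7, 40.6, 39.5, 40.6, 37.1, 31.6 and 25.5 CPM at 0, 12, 24, 36, 48, 60, 72 and 84 h. Its 2iL mean was 78.3, 100.5, 71.9, 53.6, 51.2, 34.05, 26.9 and 43.5 CPM at 0, 24, 36, 48, 60, 72, 84 and 96 h. Pttg1 thus fell in the 2iL course from 48 h on, most at 84 h with 32.3 and 21.5 CPM (log2 fold change -1.54 ± 0.21, adjusted p = 9.77e-07), and both courses were close to each other at 72 and 84 h. The falls at 72, 84 and 96 h held whichever library was left out, while that at 48 h was lost without 2iL 0 h replicate 1 or 2iL 48 h replicate 2, and that at 60 h without 2iL 0 h replicate 1 or either 60 h library.

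The kinetochore genes encode the centromeric histone Cenpa, the motor Cenpe, the large coiled-coil protein Cenpf, and Ndc80 and Nuf2, subunits of the complex that holds microtubules. At 72 h of the 2i course Cenpe, Cenpf and Ndc80 fell. Ndc80 had 68.2 and 49.9 CPM, against 104 and 81.9 CPM at 0 h (log2 fold change -0.65 ± 0.21, adjusted p = 0.0216), lost without 2i 0 h replicate 1 or 2i 72 h replicate 2. Cenpf had 238 and 214 CPM, against 326 and 300.0 CPM at 0 h (-0.47 ± 0.16), and Cenpe fell by the log2 change of -0.46 ± 0.15. The Cenpf call was lost whichever library was left out, and the Cenpe call without 2i 0 h replicate 1 or either 72 h library. In the 2iL course Ndc80 had 102 and 69.6 CPM at 96 h, against 81.2 and 90.4 CPM at 0 h, which overlap, and it passed no test there. Cenpf rose at 96 h of 2iL with 426 and 329 CPM in replicates 1 and 2, against 272 and 298 CPM at 0 h (log2 fold change 0.40 ± 0.16, adjusted p = 0.0424), a call lost without replicate 1 or either 0 h library. Cenpa fell at 60 and 84 h of 2i and at 84 h of 2iL, by 0.52 to 0.55 on the log2 scale. Each of these Cenpa calls was lost without at least 3 of the 4 libraries compared, left out 1 at a time. Nuf2 passed no test.

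Of the 8 motors and spindle proteins, Tpx2 rose at the first time of both courses. Tpx2 activates Aurora A and nucleates spindle microtubules, and lies at chr2:152847964-152895321, plus strand. It had 259 and 251 CPM at 12 h of the 2i course, against 145 and 135 CPM at 0 h (log2 fold change 0.86 ± 0.17, adjusted p = 0.000852), and 239 and 326 CPM at 24 h of the 2iL course, against 137 and 137 CPM at 0 h (log2 fold change 1.04 ± 0.17, adjusted p = 6.83e-05). Both rises held whichever library was left out. In the 2i course Tpx2 was back to 132 and 154 CPM at 60 h, and in the 2iL course it was still at 272 and 231 CPM at 48 h (log2 fold change 0.88 ± 0.17, adjusted p = 0.00016). Kif11, the motor that pushes the spindle poles apart, had 122 and 144 CPM at 24 h of 2iL, against 84.5 and 91.2 CPM at 0 h (log2 fold change 0.59 ± 0.17, adjusted p = 0.0207), lost without either 0 h library or 2iL 24 h replicate 2. Late in 2i Kif11 had 59.6 and 55.8 CPM at 72 h, against 99.7 and 91.8 CPM at 0 h (log2 fold change -0.73 ± 0.18, adjusted p = 0.00238). Early in 2i it had 138 and 116 CPM at 12 h, also above both 0 h libraries, which did not pass the test. Thus Kif11 lay above its 0 h libraries early in both courses and below them late in 2i. Kif2c, a motor that takes microtubules apart, had 59.01 and 56.9 CPM at 48 h of 2iL, against 32.1 and 32.8 CPM at 0 h (log2 fold change 0.84 ± 0.22, adjusted p = 0.00411). In 2i Kif2c had 27.6 and 25.3 CPM at 72 h, against 47.3 and 37.9 CPM at 0 h (log2 fold change -0.69 ± 0.25, adjusted p = 0.0338), lost without 2i 0 h replicate 1 or either 72 h library.

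The remaining motors and spindle proteins act late in mitosis, with Kif20a, Kif23, Kif4 and Prc1 at the central spindle. Kif20a had 18.2 and 41.6 CPM at 96 h of the 2iL course, against 60.8 and 72.6 CPM at 0 h (log2 fold change -1.09 ± 0.30, adjusted p = 0.0046), with both late libraries below both early ones but unlike each other, and the call was lost without 2iL 96 h replicate 1. Its 3' end overlaps that of Cdc23 on the other strand, so its counts are uncertain. Kif23 went against the list, with 70.1 and 72.4 CPM at 84 h of the 2i course, against 48.1 and 38.5 CPM at 0 h (log2 fold change 0.71 ± 0.21, adjusted p = 0.0098), a rise lost without 2i 0 h replicate 2. Prc1, which bundles the microtubules of the central spindle, had 119 and 134 CPM at 12 h of 2i, against 81.01 and 75.8 CPM at 0 h (log2 fold change 0.69 ± 0.18, adjusted p = 0.0132), lost without either 0 h library or 2i 12 h replicate 2. Nusap1, a microtubule-binding protein, rose at 24 and 48 h of 2i and at 24 h of 2iL, where it had 242 and 241 CPM against 159.8 and 159 CPM at 0 h (log2 fold change 0.60 ± 0.18, adjusted p = 0.0263). All 3 Nusap1 calls were lost whichever library was left out. Kif4, a chromosome-bound motor, differed over the 2i times jointly (adjusted p = 0.0196; lost without replicate 2 of 12 h or 36 h, up to 0.128) and at no single time.

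Genes of chromosome structure comprise Top2a, the topoisomerase that untangles sister chromatids, Smc2 and Smc4, the paired subunits of condensin, and Mki67, which coats mitotic chromosomes. Top2a (chr11:98992943-99024189, minus strand) had 1817 and 1979 CPM at 12 h of the 2i course, against 1355 and 1276 CPM at 0 h (log2 fold change 0.53 ± 0.14, adjusted p = 0.0121). At 72 h of that course Top2a had 997 and 892 CPM (log2 fold change -0.48 ± 0.14, adjusted p = 0.01). It thus passed the test on both sides of its start, the rise lost without either 0 h library or 2i 12 h replicate 2 and the fall without 2i 0 h replicate 1 or 2i 72 h replicate 2. At 48 h of 2iL it had 2389 and 1974 CPM, against 1564 and 1619 CPM at 0 h (log2 fold change 0.45 ± 0.14, adjusted p = 0.0135), lost without 2iL 0 h replicate 1 or 2iL 48 h replicate 1. Smc2 had 306 and 339 CPM at 72 h of 2i, against 524 and 501 CPM at 0 h (log2 fold change -0.67 ± 0.14, adjusted p = 0.000432), and 338 and 356 CPM at 96 h of 2iL, against 445 and 514 CPM at 0 h (log2 fold change -0.46 ± 0.14, adjusted p = 0.00806). The fall at 96 h was lost without 2iL 0 h replicate 2 or 2iL 96 h replicate 1. Its partner Smc4 had 354 and 395 CPM at 72 h of 2i, against 475 and 396 CPM at 0 h, which did not pass (adjusted p = 0.389), and whether Smc2 and Smc4 differ was not tested. Mki67 rose at 48 and 96 h of 2iL, with 271 and 184 CPM in replicates 1 and 2 at 96 h, against 156 and 136 CPM at 0 h (log2 fold change 0.63 ± 0.19, adjusted p = 0.00967), and both calls were lost without replicate 1 of that time or 2iL 0 h replicate 2.

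Against 0 h, the cytokinesis gene Anln had the largest fall of the list in the 2i course. Anln encodes anillin, which scaffolds the contractile ring, and Ect2 the exchange factor that activates RhoA at the division plane. Anln (chr9:22332012-22389188, minus strand) had a mean of 62.6, 100.3, 61.7, 40.3, 46.1, 40.9, 29.7 and 24.05 CPM at 0, 12, 24, 36, 48, 60, 72 and 84 h of the 2i course. Its libraries at 12 h held 102 and 98.99 CPM and those at 84 h 20.2 and 27.9 CPM, against 61.6 and 63.7 CPM at 0 h. The log2 fold change was 0.68 ± 0.18 at 12 h (adjusted p = 0.00998) and -1.37 ± 0.20 at 84 h (adjusted p = 1.98e-06). The late fall held whichever library was left out, and the early rise was lost without either 0 h library or 2i 12 h replicate 1. Anln of the 2iL course had 45.3 and 44.2 CPM at 84 h, against 68.7 and 70.9 CPM at 0 h (log2 fold change -0.64 ± 0.18, adjusted p = 0.00562). Ect2 had 93.3 and 68.6 CPM at 12 h of 2i and 22.7 and 21.6 CPM at 72 h, against 45.7 and 45.6 CPM at 0 h. The rise had a log2 fold change of 0.84 ± 0.23 (adjusted p = 0.0175) and was lost without either 0 h library or 2i 12 h replicate 1. The fall had -1.04 ± 0.27 (adjusted p = 0.00354) and held throughout. At 84 h of 2iL Ect2 had 44.8 and 25.3 CPM, against 62.9 and 64.7 CPM at 0 h (log2 fold change -0.86 ± 0.24, adjusted p = 0.00506), lost without 2iL 84 h replicate 2.

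**Figure D4:**
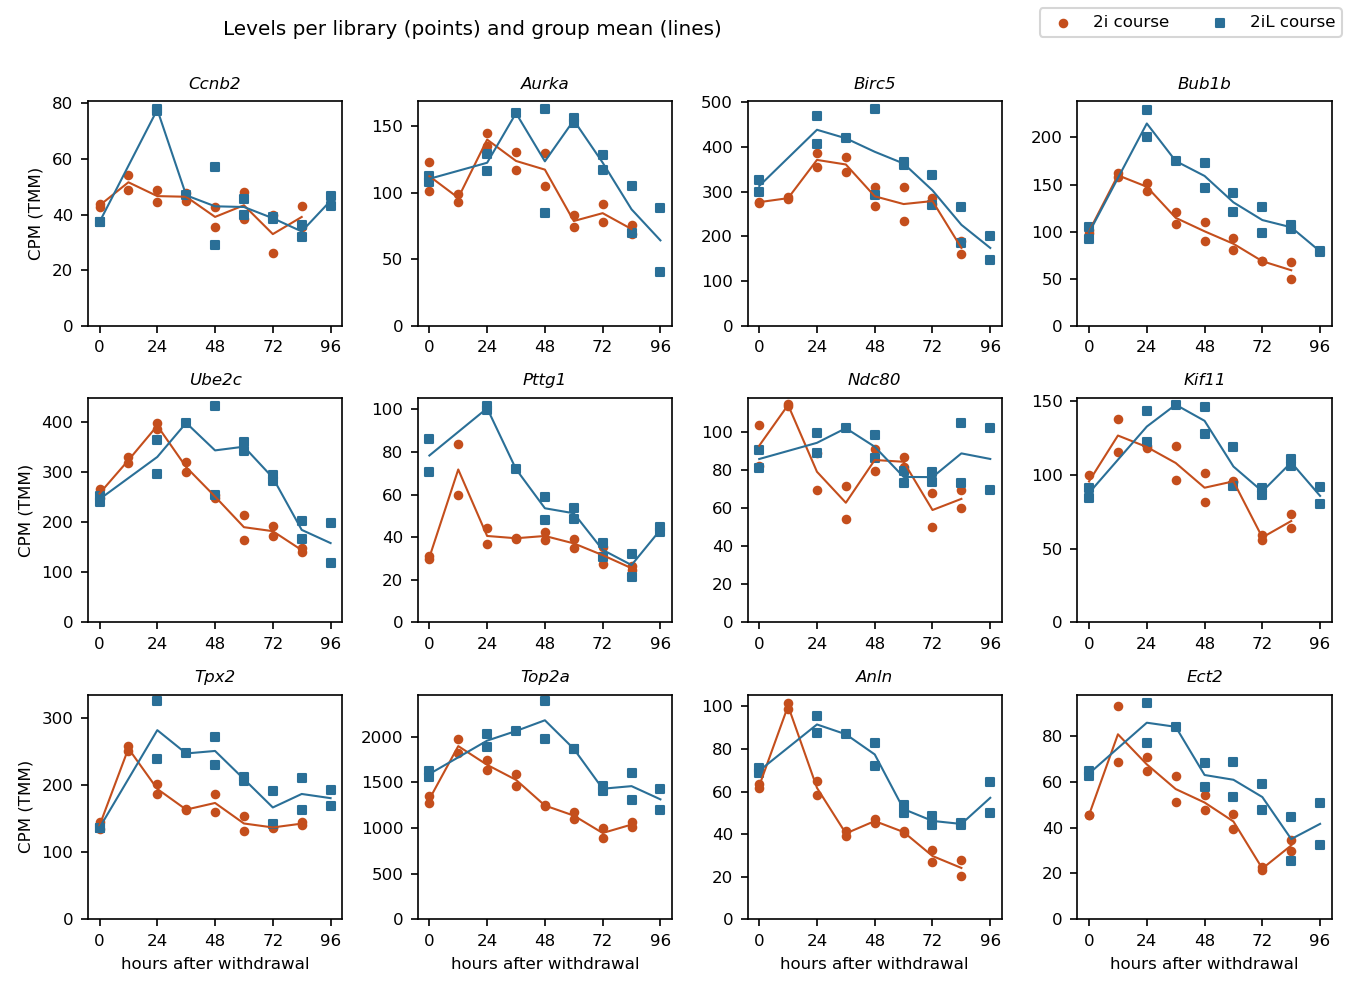
Level (y axis, CPM scaled with TMM factors) against hours after withdrawal (x axis) for 12 genes; points are libraries, orange circles the 2i course and blue squares the 2iL course, and lines join group means. Bub1b, Tpx2 and Top2a crest early and decline in both courses, Anln declines to 24.05 CPM at 84 h of 2i, and Pttg1 starts apart in the 2 media and is close in both at 72 and 84 h.

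The late decline was also measured against 24 h, where levels were high, a comparison chosen after these levels were seen. At 84 h against 24 h of the 2i course 17 genes fell and Kif23 rose, where 42.2% of all genes changed, 22.1% higher and 20.1% lower. At 96 h against 24 h of the 2iL course 24 genes fell, where 40.6% of all genes changed, 20.5% higher and 20.1% lower. Since 24 h was chosen for its high levels, these counts describe the decline and do not test it. Bub1b had 79.9 and 78.2 CPM at 96 h of 2iL, against 200.3 and 229 CPM at 24 h (log2 fold change -1.44 ± 0.17), and Ube2c had 149 and 139.99 CPM at 84 h of 2i, against 398 and 387 CPM at 24 h (-1.44 ± 0.21). Birc5 had 147 and 201 CPM at 96 h of 2iL, against 470.2 and 407 CPM at 24 h (-1.32 ± 0.20). Cenpa, Cenpe, Cenpf, Ndc80 and Nuf2, the kinetochore genes, were among neither set. The 2i count of 18 was 10 to 13 with 1 library left out, 10 without 2i 84 h replicate 2 and 11 without either 24 h library, and the 2iL count 15 to 21, lowest without either 2iL 24 h library. With library size alone as the scaling the counts were 8 falls and 1 rise in 2i, and 9 falls and 2 rises in 2iL.

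Whether the courses differ was tested as the change from 0 h in 2i minus the change from 0 h in 2iL. At 24 h 0 of the 37 genes differed by edgeR and 0 by DESeq2, with 6 at an unadjusted p under 0.05, where 3.08% of all genes differed. At 48 h Pttg1 and Kif2c differed (9.17% of all genes), and at 72 h Bub1, Pttg1 and Kif2c (9.8%). Jointly over the 6 shared times Ube2c, Pttg1 and Kif23 differed (22.5%). These shares are near or below those of all genes. The Pttg1 difference at 72 h was 1.26 ± 0.31 (adjusted p = 0.00672). It had 35.6 and 27.5 CPM at 72 h and 31.4 and 29.7 CPM at 0 h of 2i, and 30.6 and 37.5 CPM at 72 h and 86.2 and 70.4 CPM at 0 h of 2iL, so that the courses were close at 72 h and apart at 0 h. Bub1 differed by -1.22 ± 0.33 (adjusted p = 0.0125), with 31.3 and 40.2 CPM at 72 h and 63.1 and 61.5 CPM at 0 h of 2i, and 53.1 and 55.5 CPM at 72 h and 42.04 and 39.4 CPM at 0 h of 2iL. Kif2c differed by -1.05 ± 0.33 at 72 h (adjusted p = 0.0409), with 27.6 and 25.3 CPM at 72 h of 2i and 40.8 and 42.6 CPM at 72 h of 2iL. The count at 48 h was 0 to 10 with 1 library left out, 10 without 2iL 48 h replicate 2, 0 without 2iL 0 h replicate 1, 2i 0 h replicate 1 or 2i 48 h replicate 1, and 1 without replicate 2 of 2iL 0 h, 2i 0 h or 2i 48 h. That at 72 h was 0 to 3, with 0 without 2i 72 h replicate 1, and 1 without 2iL 0 h replicate 2 or 2i 0 h replicate 1. The joint count was 1 to 10. Leaving out 2iL 48 h replicate 2 gave 10 and leaving out 2iL 84 h replicate 1 gave 7, while 1 was left without 2iL 72 h replicate 2, either 2i 24 h library, or replicate 1 of 2iL 0 h, 2i 0 h, 2i 60 h or 2i 72 h. The Pttg1 difference at 72 h was lost without 2i 72 h replicate 1, that of Bub1 without 2i 72 h replicate 1, 2i 0 h replicate 1 or 2iL 0 h replicate 2, and that of Kif2c without each of the libraries compared except 2i 0 h replicate 2. For Pttg1, the joint call (adjusted p = 0.00336) held throughout. That of Kif23 was lost without 21 of the 26 libraries, left out 1 at a time (adjusted p up to 0.164), and that of Ube2c without 10 of the 26 (up to 0.0988).

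In 3 groups of the 2iL course the replicates stood apart in these genes. The median difference between the 2 libraries over the 37 genes, without sign, was 0.43 at 48 h, 0.36 at 84 h and 0.50 at 96 h on the log2 scale, and 0.11 to 0.20 in the other groups with 2 libraries. At 48 h 13 of the 37 genes were over 1.5-fold apart, at 84 h 9 and at 96 h 12, and in the other groups at most 4. Genes went to both sides. Cdk1 had 37.7 and 107 CPM in replicates 1 and 2 at 96 h, 107 and 53.9 CPM at 84 h and 83.7 and 170.4 CPM at 48 h. Kif20a had 39.2 and 88.6 CPM, Aurka 84.7 and 163 CPM and Ttk 346 and 223 CPM in replicates 1 and 2 at 48 h. Replicate 1 at 48 and 96 h and replicate 2 at 84 h were thus low in Cdk1, Ccnb1, Aurka, Kif20a and Mad2l1. Across the 37 genes, the difference between the replicates correlated with the log2 of transcript length at r = 0.43 at 48 h, 0.34 at 96 h and -0.07 at 84 h, as a description over genes measured in the same 2 libraries. The fit was repeated without these 3 libraries and 2i 12 h replicate 2, whose pair also stood apart over all genes. The 3 libraries stood apart in the genes counted, so this describes the data and tests nothing. Which library of a pair departs cannot be told from 2. At 72 h of 2i 16 genes then fell (17.5% of all genes), and at 24 h of 2iL 13 rose (7.97%). The groups at 12 h of 2i and at 48, 84 and 96 h of 2iL were left with 1 library each. The list's median log2 fold change was then 0.31 at 12 h of 2i, and 0.40, -0.08 and -0.13 at 48, 84 and 96 h of 2iL.

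**Figure D5:**
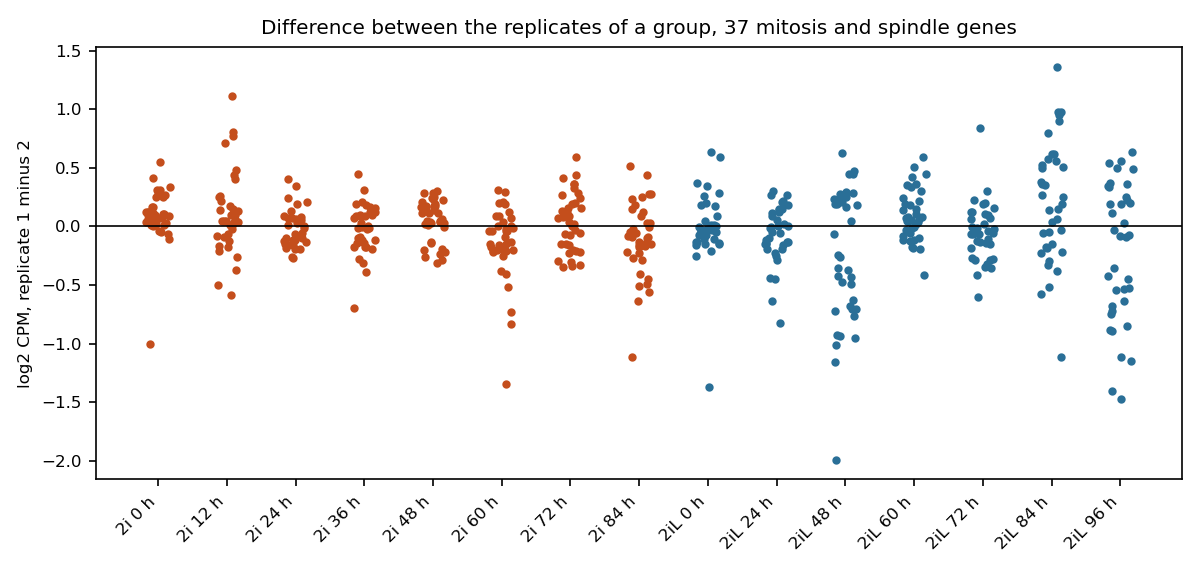
Log2 CPM of replicate 1 minus that of replicate 2 (y axis) for each of the 37 genes (points) in each of the 15 groups with 2 libraries (x axis; orange 2i, blue 2iL). Points spread widest at 48, 84 and 96 h of 2iL, where the median distance from 0 is 0.43, 0.36 and 0.50.

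A further 69 genes of mitosis were counted beside the list. At 12 h of the 2i course 7 of them rose, where 5.43% of all genes rose. At 72 h 22 fell and 1 rose, where 14.2% of all genes fell and 14.1% rose. In the 2iL course 8 rose at 24 h, where 5.65% of all genes rose. At 96 h 17 fell and 4 rose, where 20.1% of all genes fell and 19.5% rose. Over all times jointly 39 differed in 2i and 40 in 2iL, where 52.3% and 56.5% of all genes did. Those named had the smallest p of the joint test in 1 course or both. Cep55, which acts in the last cut between daughter cells, had 3.07 and 8.93 CPM at 72 h of 2i, against 38.9 and 28.6 CPM at 0 h (log2 fold change -2.55 ± 0.36, adjusted p = 2.04e-06), and 12.3 and 10.9 CPM at 96 h of 2iL, against 43.7 and 38.98 CPM at 0 h (log2 fold change -1.84 ± 0.30, adjusted p = 9.24e-06). Sgo2a, a protector of centromeric cohesion, had 67.5 and 56.6 CPM at 72 h of 2i, against 272 and 237 CPM at 0 h (log2 fold change -2.03 ± 0.18, adjusted p = 2.05e-10). Kif20b, a motor of cytokinesis, had 155 and 141 CPM at 72 h of 2i, against 433 and 383 CPM at 0 h (log2 fold change -1.46 ± 0.16, adjusted p = 1.73e-08). Cenpm, a centromere protein, had 18.8 and 18.7 CPM at 96 h of 2iL, against 43.3 and 40.3 CPM at 0 h (log2 fold change -1.16 ± 0.23, adjusted p = 0.000173). Stag2, a cohesin subunit, went the other way, with 177 and 159.9 CPM at 96 h of 2iL, against 62.9 and 65.1 CPM at 0 h (log2 fold change 1.39 ± 0.15, adjusted p = 1.13e-08).

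Of 11 regulators known to control transcription of such genes, 5 differed over all times jointly in 2i (52.3% of all genes) and 5 in 2iL (56.5%). Mybl2, which acts with the MuvB complex at promoters of mitotic genes, had 14.1 and 8.19 CPM at 72 h of the 2i course, against 119.5 and 105 CPM at 0 h (log2 fold change -3.30 ± 0.26, adjusted p = 1.66e-11). At 96 h of the 2iL course it had 18.8 and 19.4 CPM, against 109 and 119 CPM at 0 h (log2 fold change -2.56 ± 0.23, adjusted p = 1.39e-10). Both courses thus ended far below their start, with no overlap between libraries. Foxm1, the forkhead factor of G2 genes, had 52.2 and 56.6 CPM at 72 h of 2i, against 40.9 and 43.4 CPM at 0 h, with no adjusted p under 0.05 at a single time of either course and a joint adjusted p of 0.00852 in 2i and 0.213 in 2iL.

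Some of the 37 genes share sequence or position with others, and their levels are uncertain where the counting could split reads. Ccnb1 has 5 near-identical copies at its 3' end, up to 99.5% identical, and Plk1, Cdk1, Cdc20, Bub3, Ndc80 and Kif2c have 1 or 2 each, at 90.4% identity or more. Part of the Prc1 3' end matches 4 other genes. Ccna2, Cdc25c, Bub3, Cdc20, Ube2c, Kif20a, Kif4, Nusap1 and Prc1 overlap a gene on the opposite strand, and whether counting used strand is not given in the sources used here. Annotated 3' ends of Cenpf, Ube2c and Nuf2 include repeat sequence.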

How the data were processed

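The 32 libraries were made from E14 cells with a 3' digital mRNA-seq kit, and the authors deposited 1 file of whole-number counts per gene for each library. Per the submitters' processing notes, bcl2fastq, STAR 2.6.0a and HTSeq were used with the mm10 build, and the annotation release is not given in the sources used here. Lines that name no gene were left out of library sizes. Of reads placed at 1 position, 23.4% to 55.4% lay outside genes. The share was 53.6% and 55.4% at 84 h of 2i, against 30.4% and 46.1% at 0 h. In 2iL it was 53.8% and 50.2% at 96 h, against 46.7% and 40.8% at 0 h. The part of this in the late levels was not tested. Gene symbols and positions came from GENCODE M21, which matched 30934 of 31053 gene IDs. The 37 genes and the other gene lists were chosen with earlier results of these data known. After leaving out 2iL 36 h replicate 2 (7298 counts, against a median of 1980949), 31 libraries were fitted together with edgeR 4.0.16 (R 4.3.3), with 1 coefficient for each of the 16 groups, TMM scaling and the filterByExpr filter, which kept 12556 genes. The quasi-likelihood F-test had 15 residual degrees of freedom between libraries, and p-values were adjusted over all 12556 genes by Benjamini and Hochberg. The standard error is the log2 fold change without sign divided by the square root of F. There were 21 planned comparisons and 2 added after the values were seen. The fit was tested on simulated data. Of other lists, at most 3 genes with the smallest p of each joint test are named, and Foxm1 and Mybl2. Values per library were planned for 12 of the 37 genes, those with the smallest p of the joint tests and at least 1 of each role, and those given for other members were chosen after their values were seen. Copies were sought with BLAST 2.17.0 in the last 300 bases of each transcript, at 90% identity over 100 bases. Alternatives were DESeq2 1.42.0, RLE size factors, library size alone, no filter, each course alone, the shallow library kept, a replicate block, 1 library left out at a time, and 4 libraries left out. Floors cover counting error only, since the labels name no molecular identifiers.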

Additional observations from a re-analysis of the deposited data

Results flagged for a closer look

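Of the 37 genes, 5 results by gene and time and 3 by joint test differed between the courses beyond the threshold of the test on the difference itself. Pttg1 had a change in 2i minus the change in 2iL of 0.95 at 48 h and 1.26 at 72 h on the log2 scale, and a joint adjusted p of 0.00336 by edgeR. Kif2c differed by -0.97 at 48 h and -1.05 at 72 h, and Bub1 by -1.22 at 72 h. Ube2c (adjusted p = 0.0305) and Kif23 (adjusted p = 0.0465) differed by edgeR over the 6 shared times jointly, calls lost without 10 and 21 of the 26 libraries, left out 1 at a time. Kif23 had 70.1 and 72.4 CPM at 84 h of 2i, against 48.1 and 38.5 CPM at 0 h, and 47.4 and 36.6 CPM at 84 h of 2iL, against 49.95 and 38.98 CPM at 0 h. The library left out, 2iL 36 h replicate 2, held 42 counts of the 37 genes, spread over 20 of them.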

How the results depend on the processing

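The number of the 37 genes past the threshold depended on the processing, while none of the single-gene results changed direction. With library size alone as the scaling it was 3, 1, 1, 0, 1 and 5 at 12, 24, 36, 60, 72 and 84 h of 2i, and 5, 3, 4 and 6 at 48, 60, 84 and 96 h of 2iL. On that scaling it was 12 and 14 in the joint tests of 2i and 2iL, 1 each for the differences at 48 h, at 72 h and jointly, and 9 and 11 for the late times against 24 h in 2i and 2iL. The median of all genes then moved by 0.15, 0.23 and 0.20 at 60, 72 and 84 h of 2i and by -0.23 at 48 h of 2iL. With each course fitted alone it was 15, 11, 9, 7, 6 and 17 at 12, 24, 36, 48, 60 and 84 h of 2i, and 2, 5, 1, 4 and 5 at 36, 48, 60, 84 and 96 h of 2iL, with 14 in the 2iL joint test. Without a filter on low counts it was 1, 0 and 1 at 36, 48 and 60 h of 2i, 1 at 72 h of 2iL and 5 for the joint difference. With 2iL 36 h replicate 2 kept it was 0 and 1 at 48 and 60 h of 2i, 3 at 60 h of 2iL and 1 for the difference at 48 h. DESeq2 gave 0, 7 and 7 at 60, 72 and 84 h of 2i, 3 at 60 h of 2iL and 0 for the difference at 48 h. RLE size factors gave 1, 7 and 7 at 60, 72 and 84 h of 2i and 1 for the difference at 48 h. Another setting left out 4 libraries that stand apart (replicate 1 of 48 h and of 96 h and replicate 2 of 84 h in 2iL, and replicate 2 of 12 h in 2i). The count was then 5 between the media at 0 h, and 11, 10, 7, 6 and 18 at 24, 36, 48, 60 and 84 h of 2i. In 2iL it was 13, 13 and 5 at 24, 60 and 72 h. The differences then counted 1 and 11 at 24 and 72 h. Counts that rest on a group with 1 library are not given for this setting. With 1 library left out the counts ranged from 1 to 1 between the media at 0 h, and in 2i from 2 to 5 at 12 h, 0 to 0 at 24, 36 and 48 h, 0 to 1 at 60 h, 4 to 10 at 72 h and 4 to 9 at 84 h. In 2iL they ranged from 4 to 6 at 24 h, 2 to 2 at 36 h, 5 to 12 at 48 h, 1 to 2 at 60 and 72 h, 2 to 9 at 84 h and 3 to 16 at 96 h. The joint tests ranged from 19 to 24 in 2i and 22 to 30 in 2iL, and the differences from 0 to 0 at 24 h, 0 to 10 at 48 h, 0 to 3 at 72 h and 1 to 10 jointly. The late times against 24 h ranged from 10 to 13 in 2i and 15 to 21 in 2iL. Leaving out the lone 2iL 36 h library gives no value. Replicate numbers were not used to pair the libraries in the main fit. Differences between replicates correlated between groups at a median of 0.006 (range -0.385 to 0.422, over 0.1 in 10 of 105 pairs of groups). This cannot exclude that libraries were handled in shared sets, since replicate numbers need not follow such sets. With the replicate number as a block the count was 1 at 60 h of 2i and 1 for the difference at 48 h, and it moved the other counts by no more than 1.5 times. Among 182 gene results past the threshold, 177 stayed past it with the block, 146 with DESeq2, 155 with RLE size factors, 84 with library size alone, 146 without the filter, 160 with the shallow library and 159 without the 4 libraries. Apart from the numbers of genes tested and of libraries fitted, which these settings change by construction, the cause of each change was not tested. At the depth reached, 3 counts equal 0.989 to 2.94 CPM, which limits Aurkb and Cdc25c most.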

Other observations

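The preceding phase of the cell cycle was followed in 24 S phase genes, a list chosen by name. At 96 h of the 2iL course 14 of them fell, with a median log2 fold change of -0.65, where 39.5% of all genes changed and 20.1% fell. At 24 h of the 2i course 4 rose, with a median of 0.39, where 8.47% of all genes rose. At 84 h 3 fell (12.5% of the list), with a median of -0.23, where 16.6% of all genes fell. Over all times jointly 12 differed in 2i and 18 in 2iL, where 52.3% and 56.5% of all genes did. Uhrf1, which keeps DNA methylation through replication, had 66.2 and 70.8 CPM at 96 h of 2iL, against 182 and 153 CPM at 0 h (log2 fold change -1.28 ± 0.19, adjusted p = 1.96e-06). Ccne1, the cyclin E that starts S phase, had 112 and 93.8 CPM at 24 h of 2i, against 45.3 and 34.6 CPM at 0 h (log2 fold change 1.35 ± 0.23, adjusted p = 4.59e-05). In 2iL it had 142 and 115 CPM at 60 h, against 52.03 and 59.8 CPM at 0 h (log2 fold change 1.20 ± 0.22, adjusted p = 7.21e-05), and 29.9 and 39.7 CPM at 96 h of 2iL, against 52.03 and 59.8 CPM at 0 h (log2 fold change -0.66 ± 0.24, adjusted p = 0.027). Mcm2, a subunit of the replicative helicase, had 128 and 143 CPM at 84 h of 2i, against 189.8 and 168 CPM at 0 h (log2 fold change -0.40 ± 0.18, adjusted p = 0.0792), and 265 and 256 CPM at 24 h of 2i (log2 fold change 0.54 ± 0.17, adjusted p = 0.0272).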
